A study of Rattus norvegicus with 24 samples.

Results

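The solute carriers are a large superfamily of membrane transporters, and their genes were taken here as every probe whose annotated symbol starts with Slc followed by a digit. The rule found 288 probes for 280 genes among the 22226 probes of an Illumina rat array, and no measured value entered the choice. The symbols fall into 51 numbered subfamilies. Of these probes 174, for 173 genes in 44 subfamilies, passed the filter on low signals (a detection p-value under 0.05 on at least 4 arrays) and were tested. That is 60.4% of the solute carrier probes, against 51.7% of all probes. 2 of the 280 symbols, Slc7a6os and Slc4a1ap, name a gene on the opposite strand of a carrier and an adaptor protein of one, not a transporter.

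The arrays hold hippocampal RNA of 24 rats of the strain HsdOla:DWARF-dw-4, 4 in each of 6 groups. Dwarf rats homozygous for dw (dw/dw), which are deficient in growth hormone (GH), were injected under the skin with saline or with 300 µg GH from postnatal day 35, for 7 or 30 days. Heterozygous rats (HZ), which carry 1 copy of the allele, were the controls and received saline for the same time, so that no group was free of the allele and every rat was injected. The rats were 42 days old after 7 days and 65 days old after 30 days. The series concerns how GH and the circulating insulin-like growth factor 1 that it drives bear on gene expression in the adolescent hippocampus.

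Solute carriers move amino acids, neurotransmitters, sugars, lactate, ions, metals, nucleotides and vitamins across membranes, most of them by exchange or by coupling to a sodium or proton gradient. In the hippocampus the carriers of subfamily 1 and subfamily 6 take transmitters up from the synapse, those of subfamilies 17, 18 and 32 load them into vesicles, and those of subfamily 12 set the chloride gradient on which GABA acts. Subfamily 25 holds the carriers of the mitochondrial inner membrane, subfamily 35 the nucleotide sugar carriers of the Golgi and endoplasmic reticulum, and subfamilies 30 and 39 the zinc exporters and importers.

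All values are normalized log2 signals of a probe, and a difference is a difference of log2 signals with its SE from a limma fit over all 24 arrays. Signals of different probes are not set against each other. Of 6 listed neuronal markers 5 were tested, and of 5 listed markers of hippocampal neurons 4. All of these tested markers were detected on all 24 arrays. This shows neuronal RNA but does not set the hippocampus apart from other brain tissue, of which no array was run. Correlations between arrays across probes lay between 0.990 and 0.998, and 51.7% to 60.1% of the solute carrier probes were detected per array. The 12 arrays of the 7-day rats lay on 1 slide and those of the 30-day rats on another, so that age, length of treatment and slide cannot be told apart. On both slides the groups held blocks of positions in the same order, so that group and position block cannot be told apart. A fit with position as a covariate takes its slope from the order of arrays within groups. Such a fit cannot separate group from position block. In whole tissue, fewer cells of a type and less RNA per cell cannot be told apart. A p-value measures the spread between these animals, 1 array each.

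Detection differed among the subfamilies. All 6 genes of subfamily 1, the glutamate and neutral amino acid carriers, were tested, and so were 26 of 30 mitochondrial carriers of subfamily 25, 8 of 9 system A and N amino acid carriers of subfamily 38 and 13 of 19 nucleotide sugar carriers of subfamily 35. Of the organic ion carriers of subfamily 22, 7 of 17 were tested. None of the 3 genes of subfamily 18, the vesicular monoamine and acetylcholine transporters, passed the filter, nor any of the 3 genes of subfamily 23, the ascorbate carriers. Subfamilies 34, 41, 47, 49 and 51 also held no tested gene. Slc6a3 and Slc6a4, the dopamine and serotonin transporters of projecting neurons, and Slc5a7, the choline transporter of cholinergic terminals, were detected on 0 arrays. Slc2a1, the glucose transporter of the blood-brain barrier, was also detected on 0 arrays, as was Slc2a4, the insulin-responsive glucose transporter. Slc18a3, the vesicular acetylcholine transporter, was detected on 2 arrays and Slc17a8, a vesicular glutamate transporter, on 1. Probes of the same gene can differ in this. For Slc4a4 a probe was detected on 0 arrays and another on 24. A probe that was not detected therefore does not show that its gene is silent in the tissue. Of 53 carriers listed by role in brain tissue 40 had a probe and 33 were tested. The other 13, among them Slc12a2, the chloride importer, were not analysed here. Of the 288 probes 130 were detected on all 24 arrays and 92 on none. 68 of the 174 tested probes had a mean log2 signal under 6.3, close to background, where differences are compressed. The median SD within groups over the tested probes was 0.057.

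The largest set of differences lay between the time points. Over all 3 kinds of rat, 34 of the 174 tested solute carrier probes differed between 30 and 7 days at a limma adjusted p under 0.05, 11 of them higher and 23 lower at 30 days. Of all 11487 tested probes 15.7% passed, 7.83% higher and 7.9% lower, so that the share of carriers called, 19.5%, was not far from the background. By sign, 61 carrier probes were higher and 113 lower at 30 days, with a median difference of -0.012, against 47.9% higher and a median of -0.0014 over all probes. The 34 differences were small, between 1.01-fold and 1.20-fold. Each had the same sign in HZ, dw/dw saline and dw/dw GH rats. The 34 were picked by the mean of these 3 differences, which favours a shared sign. For 0 of the 34 were the 12 arrays of 1 time point all above or all below the 12 of the other, which held for 0.357% of all probes.

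The genes Slc25a1 and Slc7a10 had the largest decreases and Slc25a38 and Slc32a1 the largest increases. Their promoter sequences are shown because these members had the 2 largest differences in each direction. They are RefSeq sequences of the build GRCr8 from 250 bases before to 50 after the annotated start. Capitals mark the GC box GGGCGG, the core letters of an Sp1 site, or its reverse complement CCGCCC.
Slc25a1: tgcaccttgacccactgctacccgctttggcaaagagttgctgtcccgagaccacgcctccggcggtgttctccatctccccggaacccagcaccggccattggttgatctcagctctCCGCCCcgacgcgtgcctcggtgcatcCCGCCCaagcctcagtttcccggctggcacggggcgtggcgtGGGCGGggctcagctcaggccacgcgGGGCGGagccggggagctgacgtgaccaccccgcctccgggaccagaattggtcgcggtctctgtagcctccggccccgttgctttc
Slc7a10: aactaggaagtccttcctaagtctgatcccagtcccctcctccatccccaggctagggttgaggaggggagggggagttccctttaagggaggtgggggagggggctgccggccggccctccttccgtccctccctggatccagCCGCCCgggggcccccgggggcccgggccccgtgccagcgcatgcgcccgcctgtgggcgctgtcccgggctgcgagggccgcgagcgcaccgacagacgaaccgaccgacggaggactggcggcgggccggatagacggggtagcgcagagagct
Slc25a38: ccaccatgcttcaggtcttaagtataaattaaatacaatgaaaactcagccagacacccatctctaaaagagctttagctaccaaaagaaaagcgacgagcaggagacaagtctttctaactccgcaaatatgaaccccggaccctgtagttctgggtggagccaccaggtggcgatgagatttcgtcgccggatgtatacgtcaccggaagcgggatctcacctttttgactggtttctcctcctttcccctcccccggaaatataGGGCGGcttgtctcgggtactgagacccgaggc
Slc32a1: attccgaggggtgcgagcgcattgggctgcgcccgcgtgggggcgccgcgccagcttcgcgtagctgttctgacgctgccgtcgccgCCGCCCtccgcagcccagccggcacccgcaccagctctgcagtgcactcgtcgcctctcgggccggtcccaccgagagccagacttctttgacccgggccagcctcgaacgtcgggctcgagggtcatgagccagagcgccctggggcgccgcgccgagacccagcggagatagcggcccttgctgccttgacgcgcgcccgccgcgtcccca
The promoter of Slc25a1 lies at chr11:96559804-96560103, that of Slc7a10 at chr1:96965872-96966171, that of Slc25a38 at chr8:128712930-128713229 and that of Slc32a1 at chr3:167686995-167687294, all on the + strand. A GC box was found 4 times in the Slc25a1 window and once in each of the others. A GC box stood on either strand in 34.9% of the 27457 promoters given by RefSeq, and over 139 promoters of tested solute carriers 65.5%. A GC box stood in 7 of 10 promoters of the members that rose and in 15 of 19 of those that fell, shares that lie near that of the tested carriers. The Slc32a1 window had 42 CG dinucleotides, that of Slc25a1 29, that of Slc7a10 27 and that of Slc25a38 15, against a median of 7 over all promoters. No CG median was taken over the tested carriers, so that these counts are not read as particular to these members. TATAAA was found in the Slc25a38 window, and in 14.3% of all promoters. The CCAAT box CCAAT, on either strand, was found in 4 of the 10 and 7 of the 19, and in 37.7% of all promoters. The E box CACGTG was found in 1 of the 10 and 2 of the 19, and in 6.65% of all. Over the 139 promoters of tested carriers the shares were 5.76% for TATAAA, 37.4% for the CCAAT box and 12.2% for the E box. None of these motifs contains another. 221 of the 280 genes had a promoter in the table.

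Slc25a1, the mitochondrial citrate carrier that exports citrate for lipid synthesis, had values of 9.05, 9.15, 9.23 and 9.02 in dw/dw saline rats at 7 days, 9.16, 9.15, 9.06 and 9.08 in GH-treated dwarf rats and 9.26, 9.26, 8.93 and 8.92 in HZ rats. At 30 days the values were 8.83, 8.91, 8.98 and 8.93 in dw/dw saline, 8.77, 8.68, 8.86 and 8.95 in GH-treated dwarf rats and 8.73, 8.91, 8.77 and 8.79 in HZ rats. Within each kind of dwarf rat all 4 arrays at 30 days lay below all 4 at 7 days, and in HZ rats all 4 did as well. The signal fell by 0.263 (SE 0.043, limma adjusted p = 0.00053), or -16.6%. Slc7a10, the exchanger of small neutral amino acids that carries D-serine and glycine, had values of 7.52, 7.50, 7.69 and 7.71 in dw/dw saline, 7.83, 7.84, 7.64 and 7.65 in GH-treated dwarf rats and 7.59, 7.64, 7.62 and 7.73 in HZ rats at 7 days. At 30 days its values were 7.36, 7.47, 7.65 and 7.60 in dw/dw saline, 7.38, 7.57, 7.44 and 7.56 in GH-treated dwarf rats and 7.34, 7.38, 7.25 and 7.43 in HZ rats. The 2 ages overlapped only in dw/dw saline rats among the 3 kinds. The signal fell by 0.211 (SE 0.039, adjusted p = 0.0015) in the limma fit.

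Among the members that rose, Slc25a38, the mitochondrial carrier that brings in glycine for heme synthesis, had values of 6.88, 7.05, 6.83 and 6.86 in dw/dw saline, 6.80, 6.94, 6.76 and 6.91 in GH-treated dwarf rats and 6.86, 6.92, 6.88 and 6.83 in HZ rats at 7 days. The values at 30 days were 7.10, 7.10, 7.02 and 7.04 in dw/dw saline, 6.91, 6.93, 7.02 and 7.16 in GH-treated dwarf rats and 7.03, 7.16, 7.09 and 7.03 in HZ rats. All 4 HZ arrays at 30 days lay above all 4 at 7 days, and in the dwarf rats the ages overlapped. The difference was 0.174 (SE 0.031, limma adjusted p = 0.00097). Slc32a1, which loads GABA and glycine into synaptic vesicles of inhibitory neurons, had values of 6.79, 6.91, 6.78 and 6.91 in dw/dw saline, 6.71, 6.90, 6.84 and 6.89 in GH-treated dwarf rats and 6.72, 6.88, 6.76 and 6.94 in HZ rats at 7 days. At 30 days they were 7.01, 7.03, 7.02 and 7.05 in dw/dw saline, 6.81, 7.02, 7.01 and 7.09 in GH-treated dwarf rats and 7.01, 7.11, 6.93 and 6.99 in HZ rats. Only in dw/dw saline rats did the 2 ages not overlap. The difference was 0.170 (SE 0.034, limma adjusted p = 0.0021), or 12.5%.

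**Figure D1:**
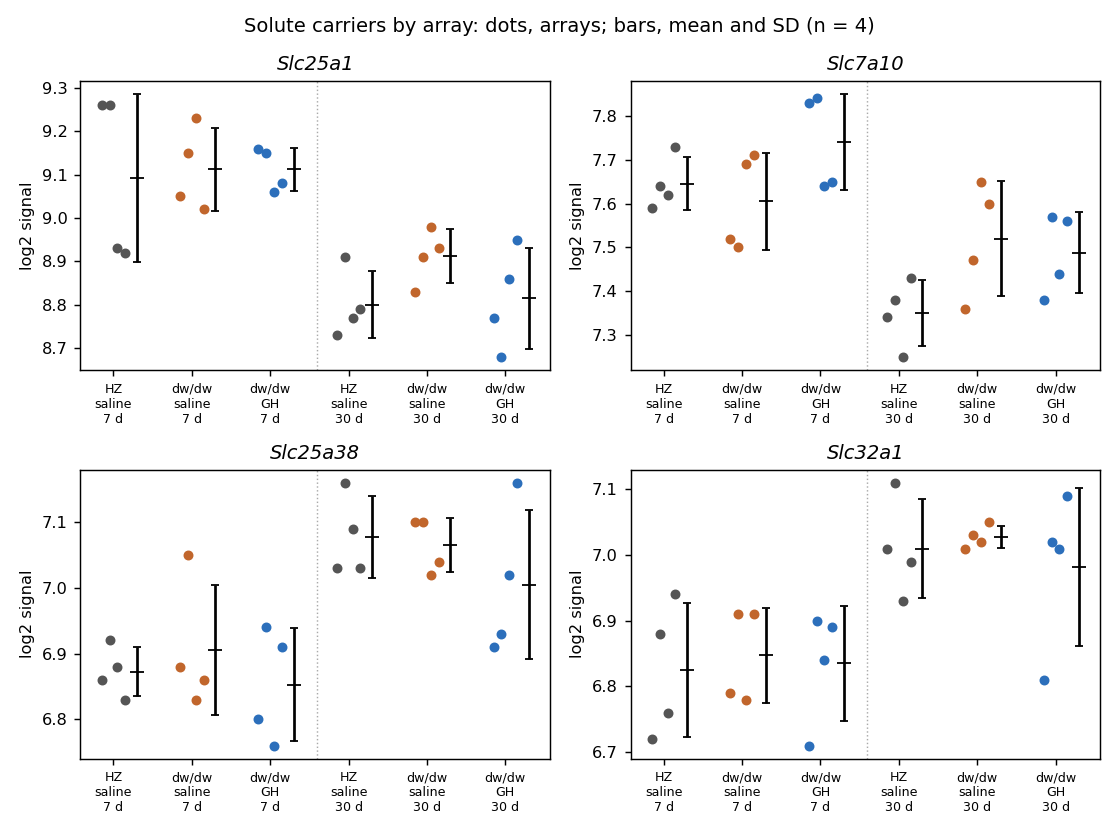
Normalized log2 signal of Slc25a1, Slc7a10, Slc25a38 and Slc32a1 on each of 24 arrays. Dots are arrays, bars the mean and SD of 4 arrays, the left 3 groups of each panel 7 days and the right 3 groups 30 days. Slc25a1 and Slc7a10 lie lower and Slc25a38 and Slc32a1 higher at 30 days, with overlap between the time points in each panel.

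The mitochondrial carriers of subfamily 25, Slc25a1 and Slc25a38 included, were called in both directions, 3 of 26 higher and 3 lower, with a median difference over the subfamily of -0.011. Slc25a4, the ADP/ATP exchanger of heart and muscle type that is also found in brain, ranged from 12.07 over a median of 12.17 to 12.25 at 7 days. At 30 days it ranged from 12.17 over 12.24 to 12.33, a difference of 0.082 (SE 0.020, limma adjusted p = 0.0087) that was -0.0056 with median scaling and -0.108 in the authors' series matrix values. Slc25a52 rose by 0.126 and Slc25a51 fell by 0.111 (limma adjusted p = 0.011 and 0.045). The human proteins of both names carry NAD into mitochondria. Slc25a27, a brain uncoupling protein homolog, fell by 0.094 (limma adjusted p = 0.040). Slc25a3, the phosphate carrier, and Slc25a5, the other main ADP/ATP exchanger in brain, had differences of -0.046 and -0.068, with limma adjusted p of 0.16 and 0.13.

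In subfamily 1, the glutamate and neutral amino acid carriers, 2 of 6 fell and 0 rose. Slc1a1, the neuronal glutamate transporter, ranged from 11.33 over a median of 11.46 to 11.57 at 7 days and from 11.28 over 11.37 to 11.49 at 30 days, a fall by 0.097 (SE 0.025, limma adjusted p = 0.012). Slc1a2, the main astrocytic glutamate transporter, ranged from 7.83 over 7.96 to 8.06 and from 7.71 over 7.81 to 7.99, a fall by 0.108 (SE 0.033, limma adjusted p = 0.032). Of 4 tested astrocyte markers 2 were higher and 2 lower, with a median of -0.028 and 0 called, and their part was not tested. The vesicular glutamate transporters Slc17a6 and Slc17a7 had differences of 0.068 (SE 0.094) and 0.102 (SE 0.073), with limma adjusted p of 0.67 and 0.37, beside the called rise of Slc32a1. Slc17a7, the form of hippocampal pyramidal and granule cells, was 8.46 ± 0.19 in dw/dw saline, 8.36 ± 0.22 in dw/dw GH and 8.32 ± 0.20 in HZ rats at 7 days (SD, n = 4). At 30 days it was 8.52 ± 0.10, 8.60 ± 0.23 and 8.32 ± 0.16. Slc12a5, the neuronal chloride exporter KCC2, had a median of 11.02 at 7 days and 11.08 at 30 days, a difference of 0.085 (SE 0.030) with a limma adjusted p of 0.056. In subfamily 6, which holds the sodium-coupled transmitter transporters, 1 of 9 rose and 0 fell. The riser was Slc6a5, the neuronal glycine transporter of spinal cord and brainstem, which differed by 0.040 at signals between 6.10 and 6.21. In subfamily 7, 2 of 9 fell, Slc7a10 and the symbol Slc7a6os, and in subfamily 38, the glutamine and alanine carriers, 0 of 8 were called. Slc3a2 and Slc7a5, the subunits of a large neutral amino acid exchanger, had differences of -0.040 and -0.020, with limma adjusted p of 0.51 and 0.83.

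In subfamily 39, the zinc importers, 1 of 6 fell and 0 rose. Slc39a3, the member that fell, ranged from 6.83 over a median of 6.96 to 7.09 at 7 days and from 6.70 over 6.79 to 6.98 at 30 days. It fell by 0.159 (SE 0.026, limma adjusted p = 0.0005), by 0.277 with saline and by 0.070 with GH in dwarf rats and by 0.131 in HZ rats. Of the 5 tested zinc exporters of subfamily 30, 1 rose and 2 fell. Slc30a3, which loads zinc into synaptic vesicles of mossy fibres, differed by 0.045 (SE 0.015) with a limma adjusted p that rounds to 0.050, just under the threshold. Slc30a1, the exporter of the cell membrane, fell by 0.021, and Slc30a2 fell by 0.089 (limma adjusted p = 0.029 and 0.025). Slc20a1, a sodium-phosphate cotransporter, fell by 0.161 (SE 0.046, limma adjusted p = 0.023), Slc4a2, a chloride-bicarbonate exchanger, by 0.154 (SE 0.036, limma adjusted p = 0.0069), and Slc9a5, a sodium-proton exchanger of neurons, by 0.150 (SE 0.039, limma adjusted p = 0.014). The medians of these genes were 10.13, 7.24 and 6.97 at 7 days and 9.97, 7.08 and 6.81 at 30 days, and the arrays of the 2 ages overlapped for each.

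The remaining called members include carriers of sugars, folate and carnitine. Slc15a4, a lysosomal transporter of histidine and oligopeptides, fell by 0.148 (limma adjusted p = 0.012), and Slc37a4, which carries glucose 6-phosphate into the endoplasmic reticulum, by 0.123 (limma adjusted p = 0.048). Slc22a5, the carnitine transporter, fell by 0.121, Slc19a1, the reduced folate carrier, by 0.093, and Slc29a1, a nucleoside transporter, by 0.087 (limma adjusted p = 0.0095, 0.0026 and 0.031). The lactate exporter Slc16a3 fell by 0.052 and Slc16a13 of the same subfamily by 0.112, while Slc16a1, the lactate carrier of endothelium and glia, had a difference of -0.106 with a limma adjusted p of 0.11. In subfamily 35, 2 of 13 rose and 1 fell. Slc35a1, the CMP-sialic acid carrier of the Golgi, rose by 0.087 (limma adjusted p = 0.040), Slc35e3, a carrier with no settled substrate, by 0.074, and Slc35b4, a UDP-sugar carrier, fell by 0.119. Slc5a3, the sodium-coupled importer of myo-inositol, had a difference of 0.131 (SE 0.044, limma adjusted p = 0.050 after rounding), which was -0.0013 in the authors' series matrix values. Slc66a3 rose by 0.035 at signals between 6.06 and 6.16. Slc22a17, a receptor for lipocalin-iron complexes named as a carrier, had a difference of 0.080 (SE 0.027, limma adjusted p = 0.047), which was -0.067 there.

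**Figure D2:**
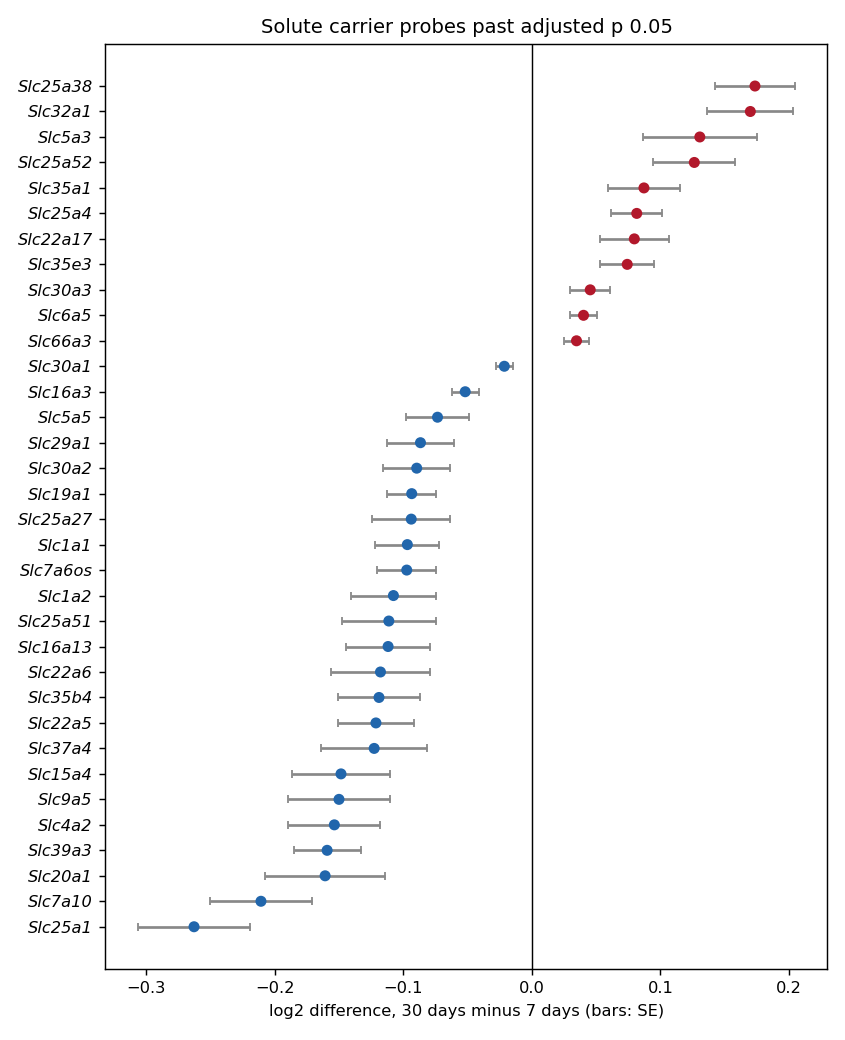
Difference of log2 signals, 30 minus 7 days over all 3 kinds of rat, for the 34 solute carrier probes called in the limma fit. Dots are the differences and bars their SE, with 11 above and 23 below 0. With median scaling Slc25a4 turned negative, and in the authors' series matrix values Slc25a4, Slc5a3 and Slc22a17 did, while the other members kept their sign under both.

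The number called differed with the normalization. With median scaling in place of quantile normalization 4 carriers passed, Slc32a1 higher and Slc16a3, Slc19a1 and Slc25a1 lower, beside 3.06% of all probes. In the authors' series matrix values, whose normalization is not given in the sources used here and in which the median of all probes fell by 0.135, 95 passed, 4 higher and 91 lower, beside 45.5% of all probes. Relative to that median all 34 members kept their direction. Within 1 kind of rat alone, 3 members passed in HZ rats (Slc25a1, Slc25a38 and Slc7a10), 1 in dw/dw saline rats (Slc39a3) and 0 in dw/dw GH rats, beside 2.30%, 2.13% and 0.871% of all probes. Cell type markers also differed between the time points in the same fit. All 3 red blood cell markers were lower at 30 days and called, with a median of -1.28. All 6 tested oligodendrocyte markers were lower, 4 of them called, with a median of -0.245, and all 11 markers of meninges and fibroblasts were lower, 4 called, with a median of -0.167. Choroid plexus markers had 0 of 3 called and 2 of 4 markers of hippocampal neurons were called, 1 in each direction. Their part in the carriers' differences was not tested.

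The 10 comparisons of GH deficiency and GH treatment called 0 solute carriers at a limma adjusted p under 0.05, and 0% of all probes. The deficiency comparison at 7 days, dw/dw saline against HZ saline, had 12 carriers at an unadjusted p under 0.05, 8 higher and 4 lower, which is 6.90% of the carriers beside 6.6% of all probes, 3.73% higher and 2.86% lower. The groups did not overlap for 2 carriers, beside 2.81% of all probes. Slc25a29, the mitochondrial carrier of arginine and lysine, had values of 7.32, 7.36, 7.41 and 7.29 in dw/dw saline rats and 7.12, 7.25, 7.28 and 7.23 in HZ rats. All 4 dwarf values lay above all 4 HZ values, and the difference was 0.129 (SE 0.044, limma adjusted p = 0.58). Slc4a2 was 7.31 ± 0.07 against 7.14 ± 0.10 (SD, n = 4), with a difference of 0.161 and a limma adjusted p of 0.68. Slc7a6os had a difference of 0.122 and Slc16a14, an orphan of the monocarboxylate family, one of 0.035. On the lower side Slc16a1 was 7.70 ± 0.16 against 7.86 ± 0.17, a difference of -0.165 (SE 0.076, limma adjusted p = 0.73). Slc7a3, a carrier of arginine and lysine at the cell membrane, had a difference of -0.092, Slc5a5, the iodide transporter, one of -0.112 and Slc38a5, a glutamine carrier, one of -0.075. Markers of meninges and fibroblasts were lower in the same comparison, 11 of 11 with a median of -0.270, and so were red blood cell markers, 3 of 3 with a median of -0.320. Markers of hippocampal neurons were higher, 4 of 4 with a median of 0.119. Of the general neuronal markers only 1 of 5 was higher, with a median of -0.024. Of the astrocyte markers 0 of 4 were higher and of the endothelial markers 0 of 3, with medians of -0.022 and -0.043. In these lists 0 markers were called, and their part was not tested.

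GH against saline in dwarf rats at 7 days had 8 carriers at an unadjusted p under 0.05, 3 higher and 5 lower, which is 4.60% of them beside 4.65% of all probes, 1.93% higher and 2.72% lower. The groups did not overlap for 12, beside 3.12% of all. This comparison shares the dw/dw saline arrays with the deficiency comparison. Slc39a3 had values of 6.96, 7.06, 7.09 and 7.06 with saline and 6.85, 6.83, 6.90 and 6.95 with GH. All 4 GH values lay below the saline values, and the difference was -0.160 (SE 0.045, limma adjusted p = 0.91). Slc7a3 had values of 6.40, 6.41, 6.32 and 6.38 with saline and 6.51, 6.46, 6.44 and 6.51 with GH, again without overlap, beside HZ values of 6.39, 6.52, 6.46 and 6.51. Its difference was 0.100 (SE 0.033, limma adjusted p = 1.0). Slc5a3, Slc7a10 and Slc35e4 had differences of 0.166, 0.136 and 0.094. Slc24a3, a potassium-dependent sodium-calcium exchanger, Slc33a1, the acetyl-CoA carrier of the endoplasmic reticulum, and Slc31a2, a copper carrier, had differences of -0.109, -0.115 and -0.033. Red blood cell markers were higher with GH, 3 of 3 with a median of 0.653, and meningeal markers 11 of 11 with a median of 0.204, 0 of either called.

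GH-treated dwarf rats against HZ saline rats at 7 days had 7 carriers at an unadjusted p under 0.05, 5 higher and 2 lower, beside 4.06% of all probes, 2.36% higher and 1.7% lower. The groups did not overlap for 3, beside 2.39% of all. Slc25a29 had the smallest p, with values of 7.42, 7.47, 7.48 and 7.23 in the dw/dw GH rats beside the HZ values given above. 3 of the 4 dwarf values lay above all HZ values and the value of replicate 4 among them, and the difference was 0.182 (SE 0.044, limma adjusted p = 0.79). Each of the 24 arrays was also left out in turn. In the run without replicate 4, the lowest of these 4 values, the difference was 0.240 with a limma adjusted p of 0.013. The result with all arrays stands. Slc7a4, of the cationic amino acid family, and Slc39a13, a zinc carrier of the Golgi, had differences of 0.172 and 0.100. Slc39a3 and Slc25a17, a peroxisomal carrier of cofactors, had differences of -0.104 and -0.102, which were 0.013 for Slc39a3 once the position on its slide was a covariate and 0.017 for Slc25a17 with median scaling. Red blood cell markers were higher in 3 of 3 cases, with a median of 0.321, and meningeal markers in 0 of 11, with a median of -0.124, 0 of either called.

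The deficiency comparison at 30 days had 12 carriers at an unadjusted p under 0.05, all 12 higher in dw/dw saline rats, beside 7.14% of all probes, 3.53% higher and 3.61% lower. The groups did not overlap for 8 carriers, beside 4.34% of all probes. Slc37a4 had values of 8.40, 8.43, 8.54 and 8.40 in dw/dw saline rats and 8.09, 8.31, 8.09 and 8.36 in HZ rats. The groups did not overlap, and the difference was 0.229 (SE 0.071, limma adjusted p = 0.60). Its values in dw/dw GH rats were 8.40, 8.35, 8.22 and 8.28, 3 of them within the HZ range and 1 level with the lowest saline values, with a difference of -0.131 from saline (SE 0.071, limma adjusted p = 1.0). Both differences use the same dw/dw saline arrays, and Slc37a4 was picked by the deficiency comparison. The opposite sign is therefore not read as a return to the HZ level. At 7 days Slc37a4 was 8.47 ± 0.11 in dw/dw saline, 8.48 ± 0.02 in dw/dw GH and 8.38 ± 0.14 in HZ rats. Slc7a10, Slc25a27 and Slc35e3 had differences of 0.172, 0.134 and 0.100 in the deficiency comparison, and limma adjusted p from 0.63 to 0.65. The 4 carriers with the smallest p on the lower side were Slc22a23, Slc39a3, Slc25a20 and Slc25a17, with differences of -0.030, -0.089, -0.049 and -0.073. Those of Slc39a3 and Slc25a17 were 0.144 and 0.104 with position as a covariate. Of the 11 meningeal markers 10 had higher values in the dwarf rats (median 0.179), and 0 of 3 red blood cell markers were higher, with a median of -0.112, 0 of either called.

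GH against saline in dwarf rats at 30 days had 3 carriers at an unadjusted p under 0.05, all 3 lower, beside 3.36% of all probes, 1.63% higher and 1.73% lower. The groups did not overlap for 6, beside 2.32%. These 3 were Slc44a4, a choline-like transporter, Slc6a2, the noradrenaline transporter, and Slc16a3, with differences of -0.029, -0.025 and -0.040 at signals near background. On the higher side Slc25a39, which carries glutathione into mitochondria, had a difference of 0.082. Red blood cell markers were higher with GH in 3 of 3 cases, with a median of 0.529, and meningeal markers in 10 of 11, with a median of 0.095, 0 of either called. GH-treated dwarf rats against HZ rats at 30 days had 7, 5 higher and 2 lower, beside 5.48% of all, 2.28% higher and 3.2% lower, and groups without overlap for 4, beside 3.19%. Slc25a20, the carnitine-acylcarnitine carrier of mitochondria, had values of 6.70, 6.70, 6.73 and 6.76 in GH-treated dwarf rats and 6.81, 6.85, 6.87 and 6.73 in HZ rats. 1 HZ array lay among the GH arrays, and the difference was -0.094 (SE 0.031, limma adjusted p = 0.89). Slc20a2, a sodium-phosphate cotransporter, Slc25a15, the ornithine carrier of mitochondria, and Slc38a6 had differences of 0.169, 0.111 and 0.095. Slc14a1, a urea transporter, had one of 0.030 and Slc6a7, the proline transporter of glutamatergic terminals, one of -0.031. Red blood cell markers were higher than in HZ rats in 3 of 3 cases, with a median of 0.417, and meningeal markers in 10 of 11, with a median of 0.112, 0 of either called.

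Pooled over both ages, all dw/dw against all HZ rats had 17 carriers at an unadjusted p under 0.05, 15 higher and 2 lower, beside 9.59% of all probes, 4.62% higher and 4.97% lower. By sign 114 carriers were higher and 60 lower in dwarf rats, 65.5% beside 54.2% of all probes, with a median of 0.0051 beside 0.0018. With median scaling the shares were 82.2% and 70.0%. Slc25a29 had the smallest p, at 7.35 ± 0.05, 7.40 ± 0.12 and 7.22 ± 0.07 in dw/dw saline, dw/dw GH and HZ rats at 7 days and 7.26 ± 0.03, 7.31 ± 0.04 and 7.24 ± 0.03 at 30 days (SD, n = 4). The dwarf means lay above the HZ mean at each age, and the difference was 0.100 (SE 0.027, limma adjusted p = 0.19). Each of the 24 arrays was left out in turn here too. In the run without dw/dw GH replicate 4 at 7 days the difference was 0.114, with a limma adjusted p of 0.046. The result with all arrays stands. Slc30a3, Slc37a4 and Slc4a2 had differences of 0.049, 0.129 and 0.108, and limma adjusted p of 0.27, 0.29 and 0.31. Slc25a17, Slc25a20, Slc16a1 and Slc15a2, a peptide transporter, had differences of -0.077, -0.043, -0.096 and -0.055, of which that of Slc25a17 was 0.055 with position as a covariate. By subfamily, 5 of 5 zinc exporters of subfamily 30 and 7 of 8 carriers of subfamily 38 had higher means in dwarf rats and 6 of 7 carriers of subfamily 22 lower means, with 0 called in each. These subfamilies were named after their values were seen, from those with at least 3 tested genes. They stand beside the 65.5% of all carriers that were higher by sign, and no pattern by subfamily is read from them.

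**Figure D3:**
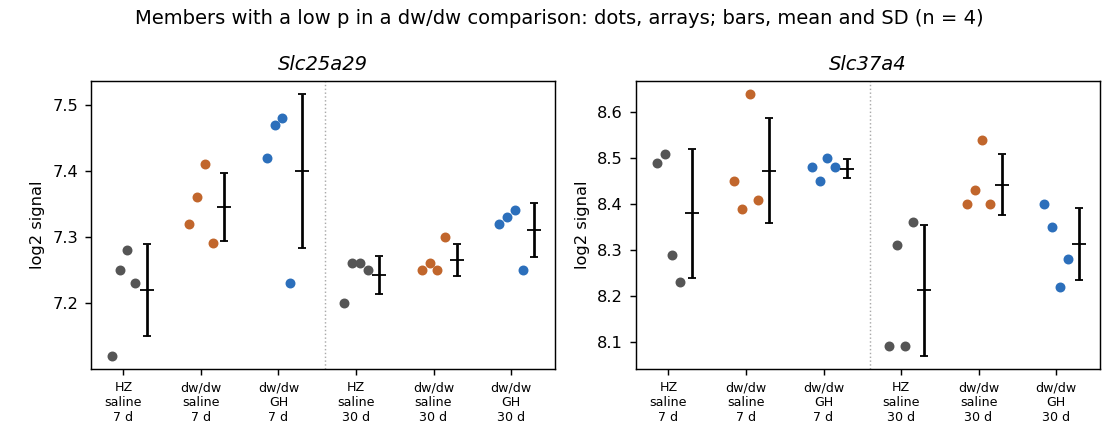
Normalized log2 signal of Slc25a29 and Slc37a4 on each of 24 arrays. Dots are arrays and bars the mean and SD of 4 arrays per group. Slc25a29 in dw/dw saline rats at 7 days and Slc37a4 in dw/dw saline rats at 30 days lie above all HZ arrays of the same age, and neither difference passed the adjusted threshold.

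GH against saline in dwarf rats over both durations had 4 carriers at an unadjusted p under 0.05, 1 higher and 3 lower, beside 2.92% of all probes, 1.2% higher and 1.71% lower. Slc5a5 had a difference of 0.068, Slc12a5 one of 0.073 (SE 0.036), which was -0.0019 with position as a covariate, and Slc1a1 one of -0.069 (SE 0.030), with a limma adjusted p of 1.0 for each. The deficiency effect differed between 30 and 7 days at an unadjusted p under 0.05 for 5 carriers, beside 4% of all, and the GH effect for 6, beside 5.15%, with 0 past the adjusted threshold in either. For the deficiency effect Slc7a10 and Slc6a20a had differences of 0.213 (SE 0.097) and 0.272 (SE 0.13), with a limma adjusted p of 1.0 for both. Slc39a3 had the smallest p of the carriers for the GH effect, 0.206 (SE 0.064, limma adjusted p = 0.87), from a GH minus saline difference of -0.160 at 7 days. Its values at 30 days were 6.72, 6.70, 6.85 and 6.79 with saline and 6.90, 6.78, 6.80 and 6.77 with GH, which overlap. Slc5a6, the sodium-dependent vitamin carrier, had a difference of the GH effect of -0.302 (SE 0.13, limma adjusted p = 0.95).

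Slc1a3, the glutamate and aspartate transporter GLAST of astrocytes and radial glia, varied most within groups of all tested carriers, with an SD of 0.42. Its values at 7 days were 11.80, 11.82, 11.96 and 10.90 in dw/dw saline, 11.86, 11.06, 11.83 and 11.87 in GH-treated dwarf rats and 11.94, 11.98, 10.91 and 11.01 in HZ rats. At 30 days they were 11.67, 11.90, 11.91 and 11.70 in dw/dw saline, 11.70, 11.73, 11.82 and 11.12 in GH-treated dwarf rats and 11.72, 10.92, 11.83 and 10.97 in HZ rats. The arrays fell into 2 sets, 7 between 10.90 and 11.12 and 17 between 11.67 and 11.98, with none between. The low set held 2 HZ arrays at each age, 1 dw/dw GH array at each age, 1 dw/dw saline array at 7 days and 0 at 30 days. The same 7 and 17 counts stood in the scanner's own signal, at 1841 to 2375 and 3071 to 4581, and in the authors' series matrix values, at 1865 to 2268 and 3088 to 4330. The gap of 0.55 was the 6th largest of all tested probes, and the next carrier, Slc35c2, had one of 0.17. The group means ranged from 11.36 ± 0.48 in HZ rats to 11.80 ± 0.13 in dw/dw saline rats at 30 days (SD, n = 4), a difference of 0.436 (SE 0.29, limma adjusted p = 0.74). No group comparison of Slc1a3 is read as a shift of a whole group, since the values lie in 2 sets.

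**Figure D4:**
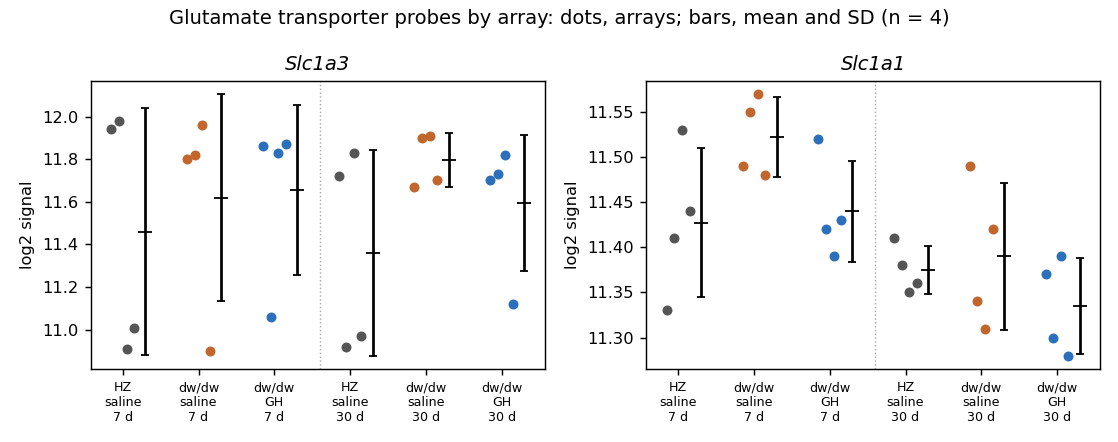
Normalized log2 signal of Slc1a3 and Slc1a1, the glial and neuronal glutamate transporters, on each of 24 arrays. Dots are arrays and bars the mean and SD of 4 arrays per group. Slc1a3 lies in a low set of 7 arrays and a high set of 17 spread over the groups, while Slc1a1 varies over less than 0.3.

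Slc6a20a, Slc22a6 and Slc6a13 followed the meningeal markers from array to array. Slc6a20a, an imino acid transporter, had values of 6.73, 6.25, 6.22 and 6.60 in HZ rats at 7 days, so that 2 arrays of 1 group stood apart. At 7 days its values lay between 6.21 and 6.35 in saline-treated and between 6.28 and 6.53 in GH-treated dwarf rats, and in HZ rats at 30 days between 6.15 and 6.20. Slc22a6, the organic anion transporter OAT1, had values of 6.61, 6.36, 6.21 and 6.46 and Slc6a13, a GABA and taurine transporter of the meninges, values of 6.53, 6.14, 6.08 and 6.23 in the same HZ rats. A score of 11 markers of meninges and fibroblasts, the mean of their log2 values relative to each marker's mean, ran from -0.161 to 0.765 in these 4 arrays and from -0.389 to -0.189 in the HZ arrays at 30 days. Of the 11 markers 8 were detected on all arrays.

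Over the 24 arrays the correlation with that score was r = 0.964 (Spearman's rho 0.949) for Slc6a20a, 0.944 (0.932) for Slc22a6 and 0.860 (0.911) for Slc6a13. For each of the 3 the permutation p was 1e-05, the smallest that 100000 resamples can give, and 3e-05 after Benjamini-Hochberg adjustment over 9 relations. The resamples shuffled all 24 arrays together, with both time points mixed. Members and marker lists were chosen with earlier results of these data known. The adjustment over 9 relations therefore does not count a choice among all tested carriers. Without the 2 arrays farthest from the median score r was 0.939, 0.916 and 0.861. Within the 7-day arrays, n = 12 and 1 slide, r was 0.973, 0.929 and 0.851, and within the 30-day arrays 0.940, 0.933 and 0.916. With the score of 3 choroid plexus markers r was 0.438, 0.270 and 0.393, with permutation p adjusted over the same relations of 0.052, 0.23 and 0.082. Of these 3 markers only Ttr was detected on all 24 arrays. Otx2 was detected on 10 and Kcnj13 on 21, with mean log2 signals of 6.12 and 6.13, close to background. The lower r with this score therefore does not set meninges apart from choroid plexus. Slc22a8, the organic anion transporter OAT3, had r = 0.434 with the meningeal and 0.145 with the choroid plexus score (adjusted permutation p = 0.052 and 0.50). Slc4a1, the anion exchanger of red cells, had r = 0.452 with the red blood cell score (adjusted permutation p = 0.052), and 0.150 and 0.074 within the ages. Over all tested carriers 5 had r above 0.8 with the meningeal score, 2.87% beside 0.435% of all probes, the other two being Slc5a5 at 0.928 and Slc13a3, a dicarboxylate carrier, at 0.820, both named after their values were seen. Slc22a6 and Slc5a5 are also among the members called lower at 30 days, by 0.118 and 0.073, in the comparison in which all 11 meningeal markers were lower. Their part in it was not tested.

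**Figure D5:**
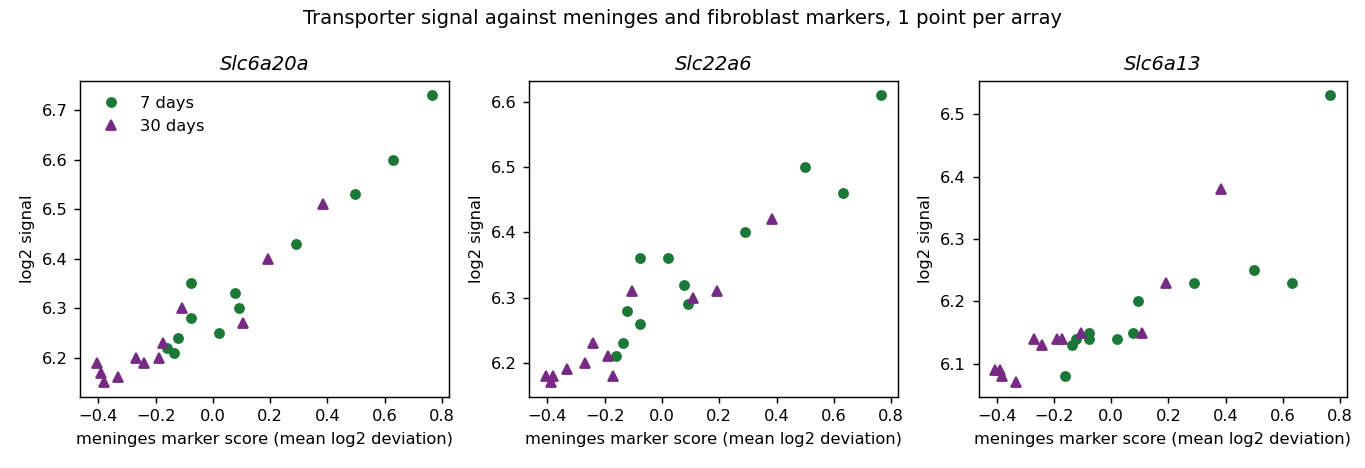
Normalized log2 signal of Slc6a20a, Slc22a6 and Slc6a13 against the score of 11 markers of meninges and fibroblasts, 1 point per array, 24 arrays. The points rise together within both time points, with r of 0.964, 0.944 and 0.860 over all arrays.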

How the data were processed

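Whole hippocampal RNA of 24 rats was measured, 1 array each. The authors deposited, per the file headers, the average bead signal intensity and the detection p-value of each probe on each array. The submitters' processing notes name GenomeStudio 2010.2 and give it no role. A second deposited table, the authors' series matrix, holds intensity values on a linear scale and served as an alternative.

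Signals were corrected by normexp with the detection p-values (offset 16), quantile normalized over 24 arrays and put on the log2 scale (neqc, limma 3.58.1, R 4.3.3). Tested were the 11487 probes with a detection p-value under 0.05 on 4 or more arrays. Means of the 6 groups were fitted with lmFit and eBayes (18 residual degrees of freedom), two-sided, with Benjamini-Hochberg adjustment over all tested probes and a threshold of 0.05. The fit was tested on simulated data. Symbols come from GEO's platform annotation, and all 288 carrier probes matched RefSeq (GRCr8) by gene ID. Slc25a30 had 2 tested probes, and the brighter stands for the gene. Array numbers limit the precision.

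Named genes are, for each comparison, the members past the threshold (with over 24, the 8 largest in each direction), otherwise the 4 smallest p in each direction, and carriers listed by role. The remaining called members were named after their values were seen. The members and lists were chosen with earlier results of these data known. Alternatives were median scaling, the series matrix values, other probe filters, array weights, each age alone, position on the slide, a replicate block and leaving out each array.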

Additional observations from a re-analysis of the deposited data

Results flagged for a closer look

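In 26 of the carriers, not all of them shown by array here, 156 groups of 4 arrays were checked. An array was flagged where its gap to the nearest other exceeded Dixon's 95% critical share of the group's range, and 6 were (3.85%). Chance flags about 5%. For Slc1a3 the lowest array stood apart in dw/dw saline rats at 7 days, at 10.9 beside 11.8 to 11.96. It did so in GH-treated dwarf rats too, at 7 days with 11.06 beside 11.83 to 11.87 and at 30 days with 11.12 beside 11.7 to 11.82. Slc6a13 had a highest array of 6.375 beside 6.138 to 6.15 in dw/dw GH rats at 30 days. Slc25a29 had a lowest array of 7.201 beside 7.254 to 7.261 in HZ rats at 30 days, and Slc5a3 one of 8.689 beside 8.849 to 8.871 in dw/dw saline rats at 7 days.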

How the results depend on the processing

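The count of carriers called at 30 against 7 days was 34 and moved to 4 with median scaling (1 higher, 3 lower) and to 95 with the series matrix values (4 higher, 91 lower), of which 28 were among the 34, 27 in the same direction and Slc25a4 in the other. It was 29 with no filter on dim probes (8.01% of all probes), 29 over probes detected on all arrays (18.7%), 31 with array weights (17.1%) and 29 with position as a covariate (15.4%), and 24 to 33 without 1 array. With the replicate block it was 31 (16.4%), 28 of them among the 34, and the other counts stayed at 0. Deviations of arrays with the same number correlated from -0.277 to 0.361 at 7 days and from -0.237 to 0.492 at 30 days, where the arrays of number 1 correlated at 0.422 to 0.492. Since not every pair exceeded 0.1 and no label ties a number to a shared litter or day, the numbers were not treated as pairs. Without dw/dw GH replicate 4 at 7 days, 1 carrier was called in dw/dw GH against HZ rats at 7 days and 1 in all dw/dw against all HZ (0 to 1 over all arrays left out). The other 8 endocrine comparisons stayed at 0 under every alternative run. Signs turned for single genes. With median scaling Slc25a17 in dw/dw GH against HZ rats at 7 days turned to 0.017 and Slc25a4 at 30 against 7 days to -0.0056. With the series matrix values Slc5a3, Slc25a4 and Slc22a17 at 30 against 7 days turned to -0.0013, -0.108 and -0.067. The fit with position as a covariate cannot separate group from position block. With position as a covariate Slc39a3 turned to 0.013 in dw/dw GH against HZ rats at 7 days and to 0.144 in dw/dw saline against HZ rats at 30 days. Slc25a17 turned to 0.104 in the latter and to 0.055 in all dw/dw against all HZ, and Slc12a5 to -0.0019 in GH against saline over both durations. Dim signals limit 68 of the 174 probes, and the cause of these changes was not tested.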
